A study of Mus musculus with 2 samples.

Results

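Genes that mark blood and lymphatic endothelium, or that encode the signals vessels respond to, were examined in the pancreas of *Mafk*-Tg and WT embryos at E15.5. The set holds 44 genes, chosen by their symbols, of 19938 genes that had a probe set with 1 gene symbol. All 44 were measured, each by 1 probe set of its own. They were sorted by role into 31 vascular genes, 6 lymphatic and sinusoidal genes, and 7 ligands. Whole-pancreas RNA was measured on Affymetrix mouse gene arrays, with 1 array for *Mafk*-Tg and 1 for WT, both on the ICR background. *Mafk*-Tg embryos carry a FLAG-tagged murine *Mafk* cDNA under the rat insulin I promoter, which is active in β-cells, a small part of this tissue, and WT embryos carry no transgene. The RNA was isolated from 3 pairs of pancreata, and the study speaks of technical replicates for the arrays, but the values used here are 1 column per genotype, and whether that column pools RNA or arrays is not given in the sources used here.

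Endothelial cells line every vessel and are held together by junction proteins such as VE-cadherin. They respond to vascular endothelial growth factors (VEGF) through the receptor tyrosine kinases VEGFR1, VEGFR2 and VEGFR3, to angiopoietins through TIE2, and to apelin through its own G protein-coupled receptor. Transcription factors of the ETS and SOXF families maintain their identity. In the developing pancreas the epithelium secretes VEGF-A, which draws in vessels, and the endothelium in turn sends signals to the endocrine and exocrine epithelium.

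The values are on the log2 scale, as the authors' software gave them. The medians of the *Mafk*-Tg and WT arrays were 6.01 and 6.01. Differences are *Mafk*-Tg minus WT, and the cutoff used for counts, 1.2-fold, is 0.26 on this scale. Since each genotype has 1 array, replicate error is unknown, differences were described without a test, and no p-value is given. Array brightness depends on the probe as well as on the RNA, so levels of different genes were not ranked. In whole tissue, fewer cells of a type and less RNA per cell cannot be told apart. The transgene's own gene, *Mafk*, had a value of 6.997 in *Mafk*-Tg and 6.75 in WT, a difference of 0.25, which does not reach the 1.2-fold cutoff. *Xist*, expressed from the inactive X chromosome of females, had 11.30 in *Mafk*-Tg and 4.40 in WT, and the Y-linked *Uty* had 3.07 in *Mafk*-Tg and 7.75 in WT. The acinar gene *Cpa1* had 13.51 in *Mafk*-Tg and 13.48 in WT, and the endothelial genes *Cdh5* and *Pecam1* lay well above the array medians, so the markers of pancreas and of endothelium were present. Genotype and embryo sex cannot be told apart in any difference, since *Xist* and *Uty* differ as they would between a female and a male sample.

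Most of the 44 genes lay slightly below their WT value in the *Mafk*-Tg array, and few of them by as much as 1.2-fold. Their median log2 difference was -0.10, against -0.01 over all 19938 genes, and single genes spanned -0.42 for *Icam2* to 0.32 for *Clec14a*. Of the 44, 34 had a difference below 0, 8 above 0 and 2 of exactly 0. A share of 77.3% was thus below 0, against 51.6% of all genes. The cutoff was passed downward by 6 genes (*Icam2*, *Gpihbp1*, *Cldn5*, *Stab2*, *Flt4* and *Erg*), or 13.6%, against 10.5% of all genes. It was passed upward by *Clec14a* and *Prox1*, or 4.55%, against 7.96% of all genes. Both shares were near those of all genes. Dim genes passed the cutoff more often. Of 8526 genes whose mean level fell below the median of the probe sets, 16.6% were lower and 11.1% higher by this cutoff, and of the 11412 others 5.87% were lower and 5.58% higher. Among the 39 members in that brighter class, the same 6 genes made up 15.4% and the same 2 made up 5.13%. The lower share was thus above the 5.87% of that class, on 6 genes, and the higher share was near its 5.58%. The 5 dim members were *Etv2*, *Esm1*, *Angpt1*, *Angpt2* and *Pgf*, and none of them passed the cutoff. The robust SD of the difference, scaled from the median absolute deviation, was 0.11 over the 44 members and 0.15 over the brighter class of all genes.

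**Figure D1:**
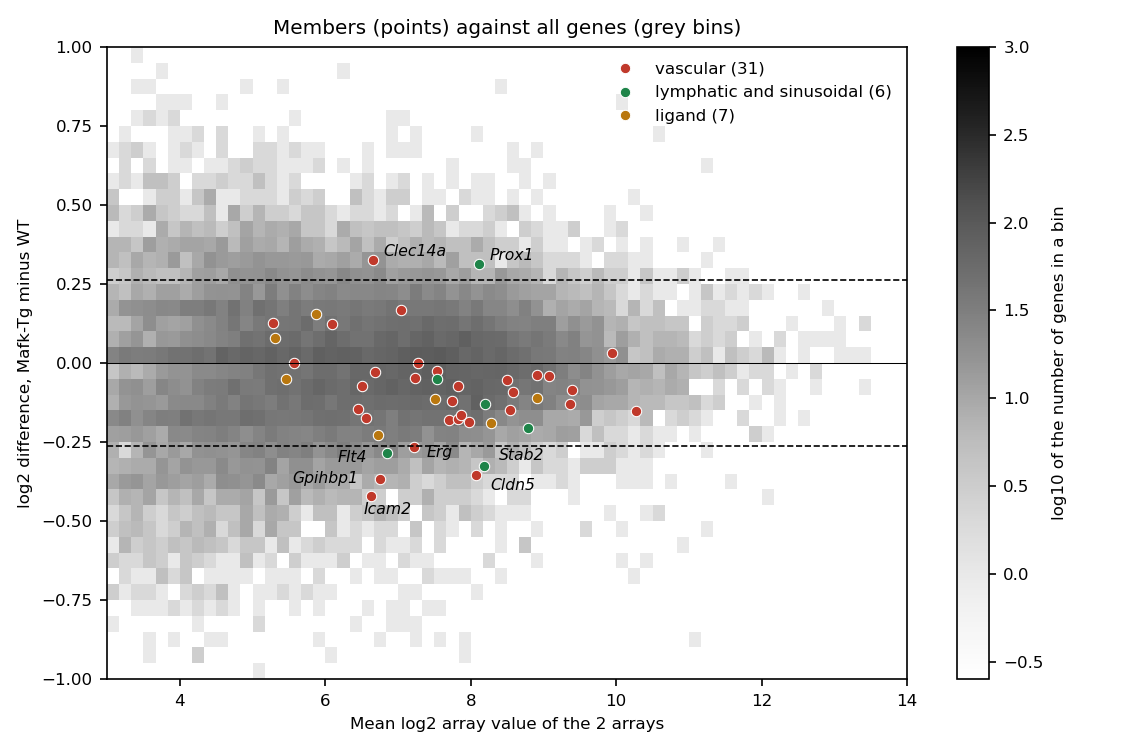
Log2 difference, *Mafk*-Tg minus WT, against the mean log2 value of the 2 arrays for 44 members (coloured by role) and for all genes (grey bins, darker where more genes lie). Dashed lines mark 1.2-fold. Most members lie between the line at 0 and the lower dashed line, 6 lie below it and 2 above the upper one. 744 genes lie outside the plotted range.

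The 13 genes of the endothelial surface and its junctions had a median difference of -0.14. Of the 13, 3 were at least 1.2-fold lower (23.1%, against 10.5% of all genes), 1 was higher (7.69%, against 7.96%) and 9 were within the cutoff. *Icam2*, an adhesion molecule on which leukocytes bind the vessel wall, had a log2 value of 6.43 in *Mafk*-Tg and 6.85 in WT, a difference of -0.42 or a ratio of 0.748. *Gpihbp1*, which carries lipoprotein lipase across capillary endothelium, had 6.56 in *Mafk*-Tg and 6.93 in WT, a difference of -0.37. *Cldn5*, the claudin of endothelial tight junctions, had 7.89 in *Mafk*-Tg and 8.25 in WT, a difference of -0.36. These 3 were the largest decreases among the 44 genes. The other junction genes lay closer to their WT values. *Cdh5*, which encodes VE-cadherin, the adherens junction protein that defines endothelium, had 10.20 in *Mafk*-Tg and 10.35 in WT, a difference of -0.15. *Esam*, an adhesion molecule of endothelial tight junctions, had 7.74 in *Mafk*-Tg and 7.91 in WT, or -0.18. *Pecam1* (CD31), found at contacts between endothelial cells and also on blood cells, had 8.53 in *Mafk*-Tg and 8.62 in WT, or -0.09. All 3 were within 1.2-fold.

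Among the remaining surface genes the sign was not shared by all. *Ecscr*, a small endothelial membrane protein, had a log2 value of 7.89 in *Mafk*-Tg and 8.07 in WT, a difference of -0.19. *Plvap*, which forms the diaphragms of fenestrae, had 7.68 in *Mafk*-Tg and 7.80 in WT, or -0.12. *Emcn*, the sialomucin of capillary and venous endothelium, had 8.89 in *Mafk*-Tg and 8.93 in WT, or -0.04. *Cd34*, a sialomucin of endothelium and haematopoietic progenitors, lay at 9.96 in *Mafk*-Tg and 9.93 in WT, a difference of 0.03 on the other side of 0. *Clec14a*, *Cd93* and *Mmrn2* belong together. The first and the second encode C-type lectin-like receptors, and the third encodes multimerin-2, a matrix protein that both receptors bind. *Clec14a* was the member with the largest increase, with 6.82 in *Mafk*-Tg and 6.49 in WT, a difference of 0.32 or a ratio of 1.25. *Cd93* had 9.30 in *Mafk*-Tg and 9.43 in WT, or -0.13. *Mmrn2* had 6.38 in *Mafk*-Tg and 6.52 in WT, or -0.14. The receptor *Clec14a* thus differed in sign from its ligand and from the related receptor.

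**Figure D2:**
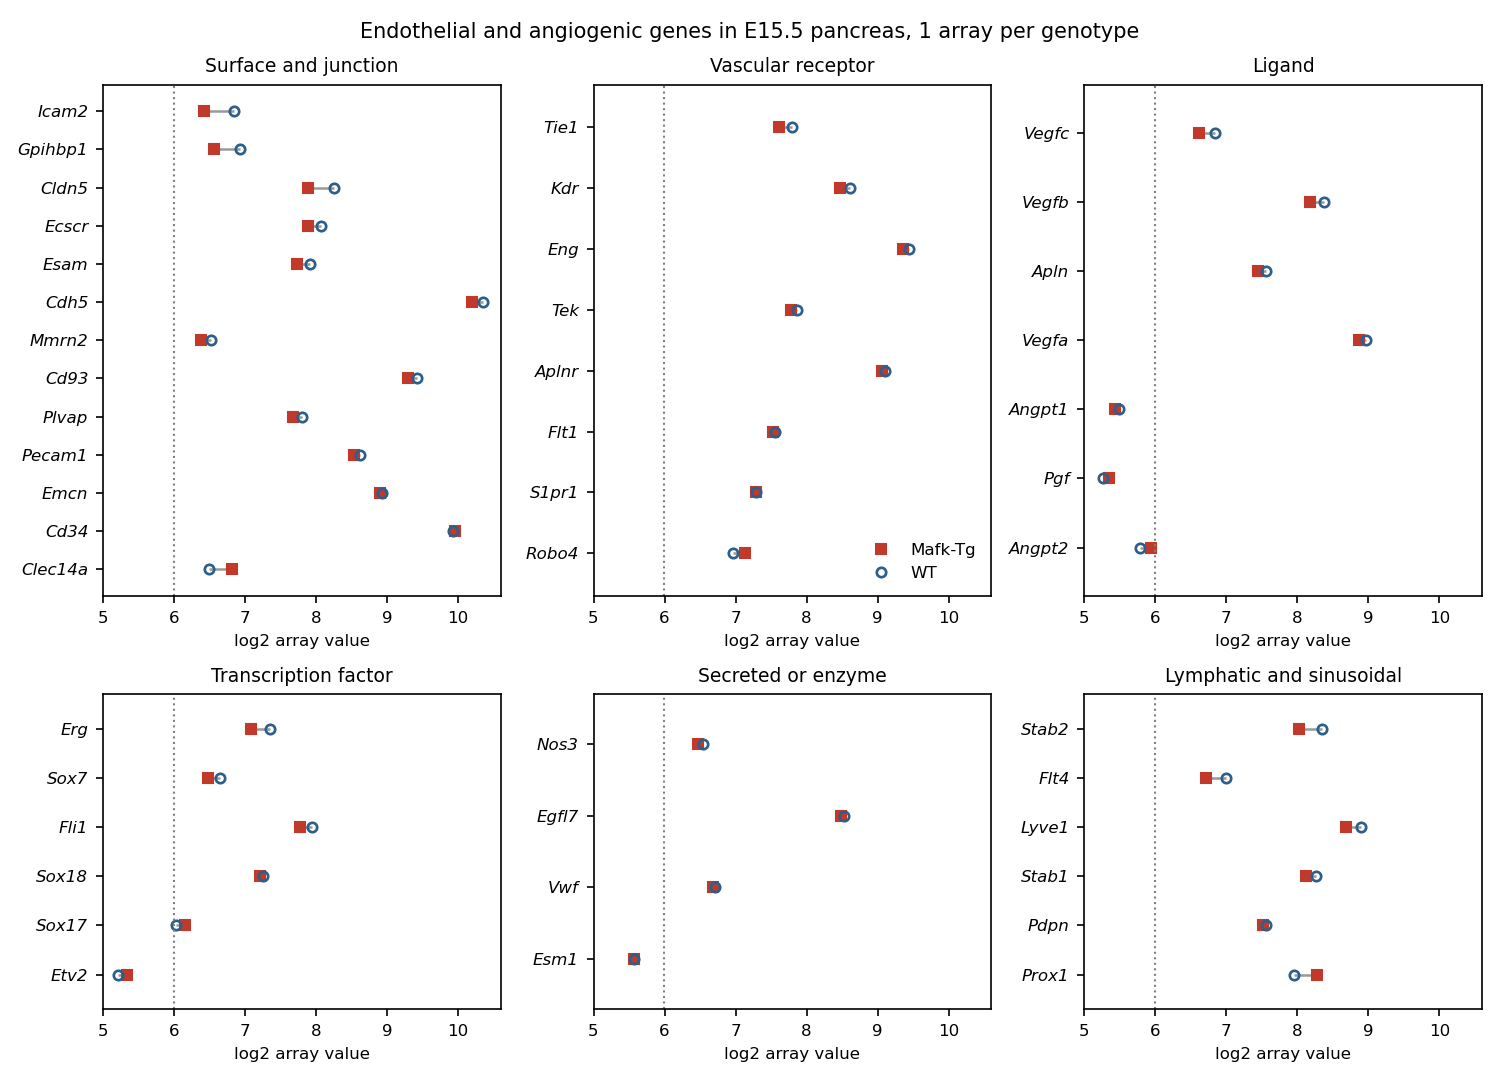
Log2 array values of the 44 genes in *Mafk*-Tg (squares) and WT (open circles) by role, with 1 array each, a line between the values of a gene and a dotted line at the median of all probe sets. In most rows the square lies slightly to the left of the circle, with the widest gaps for *Icam2*, *Gpihbp1* and *Cldn5*. The order is opposite in 8 rows, most widely for *Clec14a* and *Prox1*, and the values are equal in 2.

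None of the 8 vascular receptor genes passed 1.2-fold in either direction, and their median difference was -0.06. Of all genes, 10.5% were lower and 7.96% higher by this cutoff, so none of 8 is near those shares. *Tie1*, an orphan receptor that works with TIE2, had a log2 value of 7.61 in *Mafk*-Tg and 7.79 in WT, a difference of -0.18. *Tek*, which encodes TIE2, had 7.78 in *Mafk*-Tg and 7.86 in WT, or -0.07. *Kdr*, the gene of VEGFR2, through which VEGF-A drives endothelial growth, had 8.47 in *Mafk*-Tg and 8.62 in WT, or -0.15. The gene of the other VEGF-A receptor was closer still to its WT value. *Flt1*, which encodes VEGFR1, had 7.52 in *Mafk*-Tg and 7.55 in WT, a difference of -0.03. *Eng*, the endothelial co-receptor for ligands of the TGF-β family, had 9.35 in *Mafk*-Tg and 9.44 in WT, or -0.08. *Aplnr*, the apelin receptor, had 9.06 in *Mafk*-Tg and 9.10 in WT, or -0.04. *Robo4*, the roundabout receptor of endothelium, was the one receptor gene above its WT value, with 7.13 in *Mafk*-Tg and 6.96 in WT, a difference of 0.17. *S1pr1*, the receptor for sphingosine 1-phosphate that steadies vessel walls, had 7.28 in *Mafk*-Tg and 7.28 in WT, equal to the last digit. Such equal values are not rare in these arrays and were found for 687 of the 19938 genes. Whether they arise in the summarization of probes was not tested, so a difference of exactly 0 may not be a measured equality.

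Promoters are shown for the 4 receptor genes of the TIE and VEGFR families with the largest decreases. Their differences were -0.29 for *Flt4*, -0.18 for *Tie1*, -0.15 for *Kdr* and -0.07 for *Tek*. The choice thus used the differences themselves, and *Flt1*, at -0.03, was left out. The 250 bases before the start site, 5′ to 3′, come from RefSeq on GRCm38.p6, and 24 of the 44 genes had 31 promoters in that table. Capitals mark exact matches, on either strand, to CCGGAA, 1 strict form of the ETS site, to the SOX core AACAAT and to TGCTGA. The last is a half-site of the MAF recognition element, the element that MAFK binds. Shorter or other forms of these sites were not searched.
Flt4, chr11:49609429-49609678, plus strand: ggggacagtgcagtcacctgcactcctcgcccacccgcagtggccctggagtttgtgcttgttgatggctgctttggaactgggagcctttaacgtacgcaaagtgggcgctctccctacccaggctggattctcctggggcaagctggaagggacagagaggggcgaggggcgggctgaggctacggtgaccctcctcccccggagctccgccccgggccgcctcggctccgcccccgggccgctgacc
Tie1, chr4:118489850-118490099, minus strand: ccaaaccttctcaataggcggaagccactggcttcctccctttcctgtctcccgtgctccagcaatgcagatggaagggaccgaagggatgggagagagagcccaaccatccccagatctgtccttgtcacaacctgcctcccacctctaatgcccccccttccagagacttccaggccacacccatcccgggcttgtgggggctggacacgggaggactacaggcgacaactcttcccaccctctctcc
Kdr, chr5:75978456-75978705, minus strand: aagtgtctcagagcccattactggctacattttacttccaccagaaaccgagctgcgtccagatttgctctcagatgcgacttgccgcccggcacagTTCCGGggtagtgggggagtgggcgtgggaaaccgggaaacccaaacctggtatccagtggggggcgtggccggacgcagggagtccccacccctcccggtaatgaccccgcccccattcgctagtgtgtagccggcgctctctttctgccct
Tek, chr4:94739039-94739288, plus strand: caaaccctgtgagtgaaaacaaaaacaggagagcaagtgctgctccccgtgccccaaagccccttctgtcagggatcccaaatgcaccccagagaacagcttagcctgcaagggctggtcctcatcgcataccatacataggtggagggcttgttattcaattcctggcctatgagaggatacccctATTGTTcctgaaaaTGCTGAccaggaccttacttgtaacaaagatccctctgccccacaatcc
In *Kdr* the CCGGAA match lay on the strand opposite to the one printed, beginning 153 bases before the start site. In *Tek* a SOX core on the opposite strand began 63 bases before the start and a MAF half-site 49 bases before it, and the matches do not overlap. No match to these exact letters was found in *Flt4* or *Tie1*, which does not mean that they lack shorter forms of the ETS site. Over the 31 promoters of members, 1 held CCGGAA, 3 the SOX core and 5 the MAF half-site, which is 3.23%, 9.68% and 16.1%. Over all 32851 promoters the shares were 12.0%, 9.42% and 16.1%. Such matches describe letters only and do not show that a factor binds.

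Of the 6 transcription factor genes, only *Erg* passed the cutoff, by a narrow margin. That is 16.7% lower and 0 higher, against 10.5% and 7.96% of all genes. *Erg*, an ETS factor that keeps endothelial junction genes active, had a log2 value of 7.09 in *Mafk*-Tg and 7.35 in WT, a difference of -0.27. *Fli1*, its close relative, which blood cells also express, had 7.78 in *Mafk*-Tg and 7.94 in WT, or -0.16. *Etv2*, the ETS factor that starts the endothelial and blood lineages earlier in the embryo, was dim in both arrays, with 5.34 in *Mafk*-Tg and 5.21 in WT. The SOXF factors, which act in arterial and lymphatic specification, differed from each other in sign. *Sox7* had 6.48 in *Mafk*-Tg and 6.65 in WT, a difference of -0.17. *Sox18*, an inducer of *Prox1* in lymphatic precursors, had 7.21 in *Mafk*-Tg and 7.25 in WT, or -0.05. *Sox17*, a factor of arterial endothelium, had 6.16 in *Mafk*-Tg and 6.03 in WT, or 0.12, close to the median level of the arrays. The median of the 6 was -0.11.

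The 4 genes of secreted proteins and an enzyme of endothelium differed from WT by -0.07 to 0.00, with a median of -0.04. *Egfl7*, a secreted factor of growing vessels, had a log2 value of 8.48 in *Mafk*-Tg and 8.53 in WT. *Vwf*, the clotting protein stored in endothelial granules, had 6.68 in *Mafk*-Tg and 6.70 in WT. *Nos3*, the endothelial nitric oxide synthase, had 6.47 in *Mafk*-Tg and 6.55 in WT, a difference of -0.07. *Esm1*, a proteoglycan of endothelial tip cells, had 5.56 in *Mafk*-Tg and 5.56 in WT, equal to the last digit and below the median level.

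Lymphatic and sinusoidal genes had the lowest median of the 3 kinds, at -0.17 over 6 genes, against -0.08 for the 31 vascular genes and -0.11 for the 7 ligands. These medians lie within 0.1 of each other, and the order rests on 1 array per genotype. *Stab2*, a scavenger receptor of sinusoidal endothelium in liver and spleen, had a log2 value of 8.02 in *Mafk*-Tg and 8.35 in WT, a difference of -0.33. *Flt4*, which encodes VEGFR3, the receptor of lymphatic and sprouting endothelium, had 6.71 in *Mafk*-Tg and 6.998 in WT, a difference of -0.29. Both passed the cutoff, or 33.3% of the 6, against 10.5% of all genes. Upward it was passed by 1 gene, or 16.7%, against 7.96% of all genes. *Lyve1*, the hyaluronan receptor of lymphatic vessels and of some macrophages, had 8.68 in *Mafk*-Tg and 8.89 in WT, or -0.21. *Stab1*, a scavenger receptor of the same 2 cell types and of sinusoids, had 8.13 in *Mafk*-Tg and 8.26 in WT, or -0.13. *Pdpn*, a mucin-like protein of lymphatic endothelium that mesothelium and fibroblasts also make, had 7.51 in *Mafk*-Tg and 7.56 in WT, or -0.05. *Prox1* went the other way. It encodes the homeobox factor that specifies lymphatic endothelium and is also expressed in pancreatic epithelial progenitors and endocrine cells, and it had 8.27 in *Mafk*-Tg and 7.96 in WT, a difference of 0.31 or a ratio of 1.24. Its probe set cannot separate these sources. Of 12 genes of the pancreatic epithelium, 12 lay above their WT value, against 8960 of all 19938 genes, and none by 1.2-fold. They had a median of 0.14 and a mean level of 8.83 in *Mafk*-Tg and 8.70 in WT. Their part in the *Prox1* value was not tested.

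The 7 ligand genes were all within 1.2-fold, where 10.5% of all genes were at least 1.2-fold lower and 7.96% higher. *Vegfa*, the chief VEGF of the pancreatic epithelium, had a log2 value of 8.86 in *Mafk*-Tg and 8.97 in WT, a difference of -0.11. *Vegfb* had 8.18 in *Mafk*-Tg and 8.37 in WT, or -0.19. *Pgf*, the gene of placental growth factor, which like VEGF-B binds VEGFR1, had 5.35 in *Mafk*-Tg and 5.27 in WT, or 0.08. Among these, *Pgf* alone lay above its WT value, and it was dim in both arrays. *Vegfc*, the ligand of VEGFR3 in lymphatic growth, was the nearest of the ligands to the cutoff, with 6.61 in *Mafk*-Tg and 6.84 in WT, a difference of -0.23. Its receptor gene *Flt4* had -0.29, while the other VEGFR3 ligand gene, *Vegfd*, had 7.43 in *Mafk*-Tg and 7.47 in WT, or -0.04. *Vegfd* is X-linked, and *Xist* differs between the arrays. *Nrp2*, the co-receptor for VEGF-C, had 7.86 in *Mafk*-Tg and 7.94 in WT, or -0.08. The ligand and receptor genes of VEGF-C signalling thus lay on the same side of 0, as did 77.3% of the 44 members.

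The angiopoietin genes were dim. *Angpt1*, the TIE2 agonist made by perivascular cells, had a log2 value of 5.44 in *Mafk*-Tg and 5.49 in WT, a difference of -0.05. *Angpt2*, made by endothelium and an antagonist of TIE2 in many settings, had 5.95 in *Mafk*-Tg and 5.79 in WT, or 0.15. Both lay below the median level, where the robust SD of the difference over all genes was 0.24, so neither value exceeds that spread. *Apln*, the apelin gene of endothelial tip cells, had 7.45 in *Mafk*-Tg and 7.56 in WT, or -0.12. *Apln* lies on the X chromosome, and the arrays also differ in *Xist*.

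**Figure D3:**
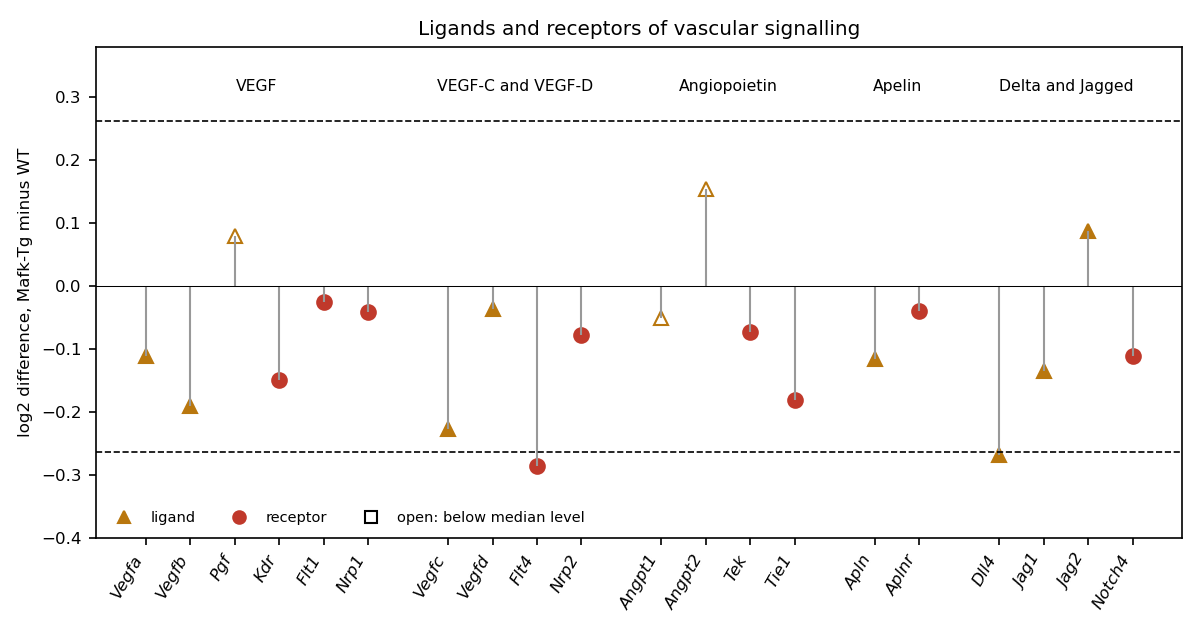
Log2 difference, *Mafk*-Tg minus WT, of ligand genes (triangles) and receptor genes (circles) of vascular signalling, with 1 array per genotype, dashed lines at 1.2-fold and open symbols for genes below the median level. *Flt4* at -0.29 and *Dll4* at -0.27 lie just past the lower line, and the 3 highest values are *Angpt2* at 0.15, *Jag2* at 0.09 and *Pgf* at 0.08.

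A second list of vascular genes, which shares no gene with the 44, gave a similar picture. It was read from the same 2 arrays and chosen with earlier results known, so it is not independent support. Of 58 listed, 56 were measured, and their median difference was -0.13, with 44, or 78.6%, below 0, against 51.6% of all genes. Of the 56, 9 were at least 1.2-fold lower, or 16.1%, against 10.5% of all genes, and 3 were higher, or 5.36%, against 7.96%. These shares past the cutoff were again near those of all genes, dim ones included. Of the 51 in the brighter class, 9 were lower and 2 higher, against 5.87% lower and 5.58% higher over all genes of that class. The lower share was thus above that of its class, as for the members, and the higher share was near it. The largest decreases were those of *Exoc3l2*, with a log2 value of 5.90 in *Mafk*-Tg and 6.43 in WT, and of *Lmo2*, with 8.09 in *Mafk*-Tg and 8.55 in WT, differences of -0.52 and -0.46. *Gata2* followed with -0.34. *Lmo2* and *Gata2* encode factors of the endothelial and blood lineages. Erythroid and leukocyte genes had median differences of -0.52 and -0.58, and their part in the values of *Lmo2* and *Gata2* was not tested. *Nid1*, a basement membrane gene, had -0.30, and *Hey1*, a target of Notch in arteries, had -0.28. *Ets1*, the gene next to *Fli1* on chromosome 9, had -0.28. *Nr2f2*, *Cyyr1* and *Dll4* completed the 9, with -0.28, -0.27 and -0.27. The highest values belonged to *Bmx*, a kinase gene of arterial endothelium on the X chromosome, at 0.32, *Ushbp1* at 0.31, *Gja4*, an arterial gap junction gene, at 0.29, *Hhex* at 0.24 and *Sele*, the gene of E-selectin, at 0.17. *Bmx* and *Sele* lay below the median level, and *Hhex* and *Sele* were within 1.2-fold.

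Arterial and venous genes of the second list were grouped after the values had been seen. Among 10 arterial genes, 8 were below 0, with a median of -0.12 and a range from *Hey1* at -0.28 to *Bmx* at 0.32. The 3 venous genes were all below 0. *Nr2f2*, the factor that sets venous identity, had a log2 value of 9.05 in *Mafk*-Tg and 9.33 in WT. *Ephb4*, the venous ephrin receptor, had 8.80 in *Mafk*-Tg and 8.83 in WT, a difference of -0.02. The remaining venous gene, *Nrp2*, had -0.08.

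Genes of cells that surround or fill vessels differed from WT by different amounts. Over all genes, 51.6% were below 0 and 10.5% at least 1.2-fold lower. Mural cells, the smooth muscle and pericytes of vessel walls, had a median difference of -0.10 over 14 genes, 11 of them below 0 and 1 at least 1.2-fold lower. That gene was *Pdgfrb*, the pericyte receptor, with a log2 value of 9.65 in *Mafk*-Tg and 9.998 in WT. Mesenchyme had a median of -0.13 over 15 genes, 11 below 0 and 1, *Tcf21* at -0.42, at least 1.2-fold lower. These medians lay close to the -0.10 of the 44 endothelial and angiogenic genes. Blood cell genes lay much lower. Of 15 leukocyte genes, 15 were below 0 and 14 at least 1.2-fold lower, with a median of -0.58 and a mean log2 level of 7.29 in *Mafk*-Tg and 7.81 in WT. Of 15 erythroid genes, 15 were below 0 and 13 at least 1.2-fold lower, with a median of -0.52 and a mean level of 7.32 in *Mafk*-Tg and 7.90 in WT. The defining leukocyte gene *Ptprc* (CD45) had 6.74 in *Mafk*-Tg and 7.03 in WT, and the red cell gene *Slc4a1* had 9.24 in *Mafk*-Tg and 9.78 in WT, all above the median level. For 15 macrophage genes the median was -0.18, and 6 were at least 1.2-fold lower, with a mean level of 6.86 in *Mafk*-Tg and 7.07 in WT.

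Of the 44 members, 9 that blood cells also express (*Pecam1*, *Icam2*, *Fli1*, *Erg*, *Cd34*, *Cd93*, *Eng*, *Stab1* and *Lyve1*) were set apart. They had a median difference of -0.13, with 8 below 0, 2 at least 1.2-fold lower (22.2%, against 10.5% of all genes) and 0 higher. The other 35 had a median of -0.07, with 26 below 0. Of these, 4, or 11.4%, were at least 1.2-fold lower and 2, or 5.71%, higher. The shares were 10.5% and 7.96% over all genes, and 5.87% and 5.58% over the brighter class of all genes. The 9 are not every such gene, since *S1pr1*, *Tek*, *Vwf* and *Esam* among the 35 are also expressed by some blood cells. The sinusoidal gene *Stab2* is also expressed in liver. Of 11 hepatocyte genes, 7 were at least 1.2-fold lower (63.6%, against 10.5% of all genes) and 1 was higher (9.09%, against 7.96%). Of the 11, 9 were below 0, with a median of -0.34 and a mean level of 7.39 in *Mafk*-Tg and 7.74 in WT. *Alb*, the albumin gene, had 10.66 in *Mafk*-Tg and 11.23 in WT, whereas *Ttr*, the transthyretin gene, which islet cells also express, had 10.56 in *Mafk*-Tg and 10.29 in WT, a difference of 0.27. The part of blood cells or liver in the endothelial values was not tested. On the other side of 0 lay the epithelial genes and the acinar genes. The acinar genes had a median of 0.22, with 13 of 14 above 0, against 8960 of all 19938 genes. Of the 14, 4 were at least 1.2-fold higher (28.6%, against 7.96% of all genes) and 0 lower. Their mean level was 10.33 in *Mafk*-Tg and 10.07 in WT. The plot of gene lists shows the medians of the 6 roles of the members, ligands included, between those of blood cells and of epithelium.

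**Figure D4:**
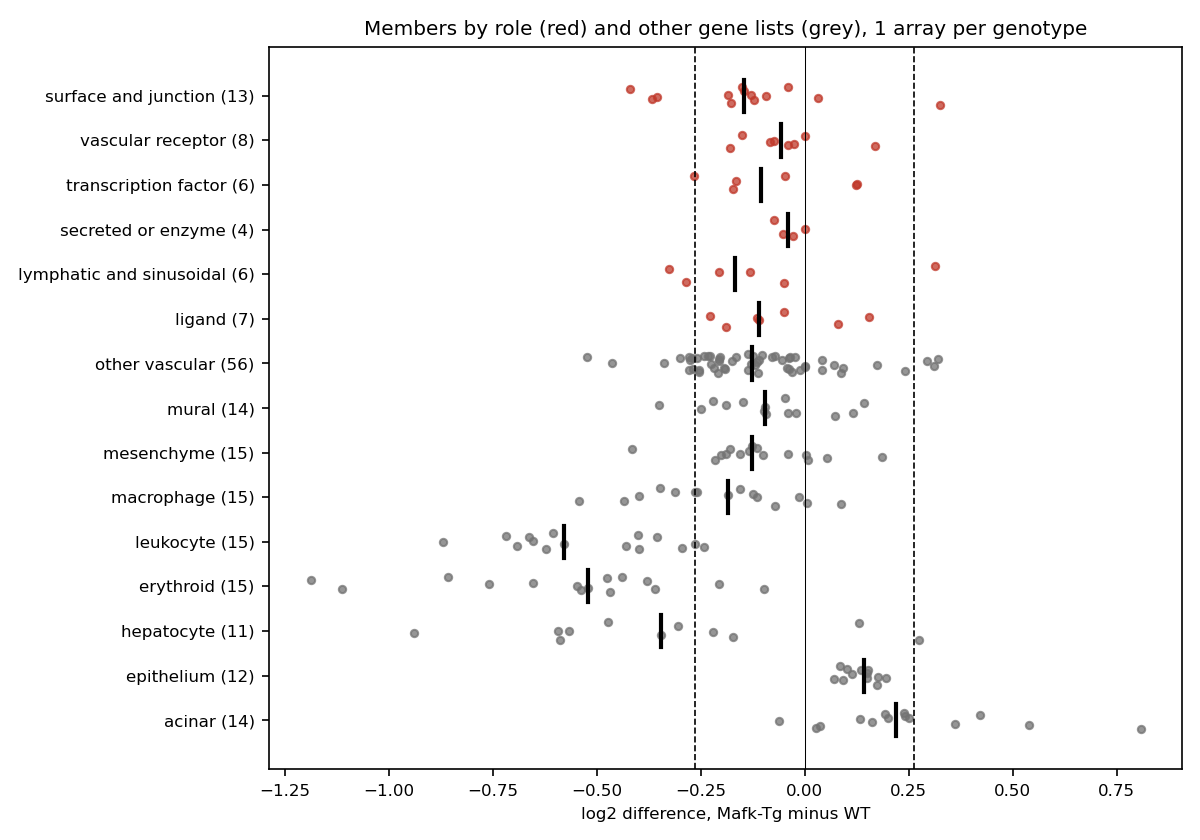
Log2 difference (*Mafk*-Tg minus WT) of single genes, with members by role in red, other lists in grey and the median of each list (black bars), with the number of genes in brackets. Dashed lines mark 1.2-fold, and each genotype has 1 array. The roles of the members, ligands included, have medians from -0.17 to -0.04, between those of leukocyte genes at -0.58 and acinar genes at 0.22.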

How the data were processed

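RNA of whole E15.5 pancreas was measured on Affymetrix MoGene-1_0-st-v1 arrays, with 1 *Mafk*-Tg and 1 WT array. The authors normalized the arrays and summarized probes into probe sets with Affymetrix Expression Console (algorithm and version not given in the sources used here), and the deposited log2 values span 0.51 to 14.01. No further scaling was applied. Joint scaling of the arrays can hide a shift common to all genes, and background can compress the differences of dim genes. The measured differences of dim genes still spread more widely here, with a robust SD of 0.24, against 0.15 in the brighter class. Of 35556 probe sets, 21789 carried a single gene symbol in the platform's gene table, 1621 carried several, and 12146 stay unnamed here. Where a gene had more than 1 probe set, their log2 values were averaged. The change of a gene is the *Mafk*-Tg value minus the WT value. Since each genotype has 1 array, no test was made, and precision is limited by the number of arrays.

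All members are named, with the 5 largest increases and decreases of a second vascular list, up to 3 genes of each marker list, and genes that check the labels. Other genes named from these lists (such as *Ets1*, *Nr2f2*, *Ephb4*, *Ptprc*, *Slc4a1*, *Alb*, *Ttr* and *Cpa1*) were picked after their values had been seen. The members and lists were chosen with earlier results of these data known. Chromosomes and promoters came from RefSeq on GRCm38.p6. Alternatives were quantile normalization, equal array medians, a loess curve (span 0.3) of difference against mean level, a filter on dim genes, other gene values, cutoffs of 1.1-fold and 1.5-fold, and leaving out sex-linked genes or the 9 members set apart as also of blood cells. A count was held to have moved beyond 1.5 times and a median beyond 0.1. The steps were tested on simulated data. Scripts ran in Python 3.11.15 with pandas 2.3.3, numpy 2.4.6, matplotlib 3.10.9 and statsmodels 0.14.6.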

Additional observations from a re-analysis of the deposited data

How the results depend on the processing

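Counts depended on the cutoff. At 1.1-fold, 21 of the 44 genes passed, 17 of them lower and 4 higher, or 38.6% and 9.09%, against 25.7% and 20.8% of all genes. At 1.5-fold, 0 passed, with 0 lower and 0 higher, against 1.27% and 0.697% of all genes. Of the second vascular list, 30 passed 1.1-fold, 25 lower and 5 higher, and 0 passed 1.5-fold. Under equal medians, quantile normalization and the loess, the 8 genes past 1.2-fold remained past it and no other member crossed it. No member moved by more than 0.02, and the sign changed only for *S1pr1* and *Esm1*, whose difference was exactly 0. The median of the 44 was between -0.12 and -0.07 under all alternatives for it, and that of the ligands was -0.08 without the X-linked *Apln* and -0.15 without dim genes. No paired analysis was possible because each genotype has 1 array. For the same reason no array could be left out.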
